A study of Mus musculus with 12 samples.

Results

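The 9 genes described here encode proteins of bone resorption and acid secretion by osteoclasts: Ctsk, Acp5, Car2, Slc4a2, Tcirg1, Clcn7, Ostm1, Snx10 and Plekhm1. They were taken by symbol, whatever their values, from 55401 gene identifiers in the deposited culture tables, and all 9 passed the filter on low counts that left 14030 genes for testing. The study used mice with a conditional knockout (cKO) of Impdh2, which encodes an enzyme of guanine nucleotide synthesis. Bone marrow cells of WT and LysM-cKO mice were grown for 3 days with conditioned medium equal to 20 ng/ml of M-CSF, seeded, and stimulated with 40 ng/ml of RANKL (spelled RNAKL in the labels). Each genotype gave 2 libraries titled R40D3 and 2 titled R0D3, numbered 1 and 2, for 8 RNA-seq libraries in all. The titles R40D3 and R0D3 are not spelled out in the labels, which give the same treatment text for all 8 libraries, so they are used here as names. In LysM-cKO mice the LysM promoter drives Cre in the myeloid lineage, which includes macrophages as well as osteoclast precursors. Strain, sex, the number of mice and whether WT mice carried Cre or floxed alleles were not given in the sources used here. Age was not given for the mice behind the 8 culture libraries. The labels state an embryonic day only for the separate forelimb libraries, which are described at the end. Nothing says that numbers 1 and 2 are separate cultures or animals, so the p-values measure only the spread between these libraries.

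An osteoclast dissolves bone in a sealed space under the cell. Carbonic anhydrase 2 makes protons and bicarbonate from carbon dioxide, a V-ATPase pumps the protons out while a chloride transporter carries the balancing charge, and an anion exchanger returns bicarbonate to the blood side. The acid frees the mineral, and enzymes delivered by secretory lysosomes, above all cathepsin K, cut the exposed collagen. Loss of function of several of these genes causes osteopetrosis, a disease of dense bone that is not resorbed.

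The 8 libraries held between 16009146 and 19221865 counts, with 1.72% to 2.87% of counts from mitochondrial genes. Impdh2 was lower in all 4 LysM-cKO libraries than in all 4 WT libraries, as labelled. It stood at 22.3 and 28.2 CPM (counts scaled to library size, with the TMM method of edgeR) in WT R0D3, 25.7 and 27.7 in WT R40D3, 7.36 and 7.03 in LysM-cKO R0D3, and 7.72 and 8.38 in LysM-cKO R40D3. Expression of 8 osteoclast marker genes outside the 9 (Calcr, Ocstamp, Dcstamp, Mmp9, Itgb3, Nfatc1, Oscar and Atp6v0d2) summed to between 289.2 and 394.7 CPM in the R0D3 libraries and between 6575 and 17749 CPM in the R40D3 libraries. The sum of 10 macrophage markers was high in every library, from 19821 to 47255 CPM. In such bulk samples, more cells of a type and more RNA per cell cannot be told apart.

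RefSeq start-region windows (GRCm38.p6, 250 bases before to 50 after an annotated start) existed for 8 of the 9 genes, 16 windows in all, and Car2 had no entry. The 250 bases before the start are shown 5′ to 3′ on the gene's strand for Ctsk and Acp5, whose RNA rose by more than 7 on the log2 scale in WT, for Clcn7, which rose about 1, and for Plekhm1, which rose least. Capitals mark any match, on either strand, to the letters GAGGAA (PU.1 core), GGAAAA (NFAT core), CACGTG (E-box), CATGTG (E-box variant), TCACGTGA (core of the lysosomal CLEAR element, which contains CACGTG) and TGANTCA (AP-1).
Ctsk, chr3:95498960-95499209, plus strand: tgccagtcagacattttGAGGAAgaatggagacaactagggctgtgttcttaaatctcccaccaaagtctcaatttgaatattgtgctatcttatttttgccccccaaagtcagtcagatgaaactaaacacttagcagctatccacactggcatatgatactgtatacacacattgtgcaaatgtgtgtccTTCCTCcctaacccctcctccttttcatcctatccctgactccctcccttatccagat
Acp5, chr9:22135747-22135996, minus strand: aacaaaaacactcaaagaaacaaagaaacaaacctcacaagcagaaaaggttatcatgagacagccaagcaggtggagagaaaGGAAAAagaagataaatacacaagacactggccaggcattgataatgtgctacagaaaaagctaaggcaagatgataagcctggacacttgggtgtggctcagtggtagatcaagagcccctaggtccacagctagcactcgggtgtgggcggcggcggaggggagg
Clcn7, chr17:25133141-25133390, plus strand: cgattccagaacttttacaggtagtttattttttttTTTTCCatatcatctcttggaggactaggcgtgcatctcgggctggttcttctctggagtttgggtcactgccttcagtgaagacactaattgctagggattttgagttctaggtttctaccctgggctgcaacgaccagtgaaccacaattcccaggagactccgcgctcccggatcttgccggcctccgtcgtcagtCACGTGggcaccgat
Plekhm1, chr11:103412706-103412955, minus strand: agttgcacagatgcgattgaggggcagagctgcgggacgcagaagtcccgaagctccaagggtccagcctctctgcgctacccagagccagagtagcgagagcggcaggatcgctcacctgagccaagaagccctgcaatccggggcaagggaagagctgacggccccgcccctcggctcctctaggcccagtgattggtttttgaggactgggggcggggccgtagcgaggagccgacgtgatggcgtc

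Over the full 300-base windows, Ctsk had a GC content of 43.7% with 2 CpG dinucleotides, and the Acp5 window shown had 48.7% with 4, while the other 2 Acp5 windows had 64.0% with 17 and 54.7% with 7. The Clcn7 window shown had 17 CpG at 52.7% GC, and the Plekhm1 window had 24 at 65.0%. The median of all 32851 windows of this length was 52.7% GC and 7 CpG. The Clcn7 window holds CACGTG 15 bases before the start and TCACGTGA 6 bases after it. CACGTG occurs in 7.15% of all windows and TCACGTGA in 0.974%. No other window of the 8 genes matched either. GAGGAA, present in 28.3% of all windows, was found in windows of Ctsk, Slc4a2, Tcirg1 and Snx10. GGAAAA, present in 23.4%, was found for Ctsk, Acp5, Tcirg1, Clcn7 and Snx10. CATGTG, in 14.2%, was found in other windows of Acp5 and Clcn7, and TGANTCA, in 7.81%, in 1 Snx10 window. The shares of all windows count single windows, whereas a gene with several windows has more places for a match. Counted per window, GAGGAA and GGAAAA each matched 5 of the 16 windows, and CATGTG matched 2. These are matches of letters only, and binding was not measured.

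In WT cultures all 9 genes were higher at R40D3 than at R0D3. Each passed edgeR's quasi-likelihood test at a Benjamini-Hochberg adjusted p below 0.05, against 11.4% of all tested genes called higher and 5.52% called lower. With the replicate number as a block the 9 calls held, and 16.7% of all genes were called higher and 11.6% lower. The rises differed widely in size: Car2, Acp5 and Ctsk rose most, Snx10 and Slc4a2 came next, and Tcirg1, Clcn7, Ostm1 and Plekhm1 rose by 1.20 or less on the log2 scale. The median log2 fold change over the 9 was 2.62, whichever of its possible values Car2 is given, against 0.01 over all tested genes. Both R40D3 libraries lay above both R0D3 libraries for all 9, as they did for 32.9% of all tested genes.

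**Figure D1:**
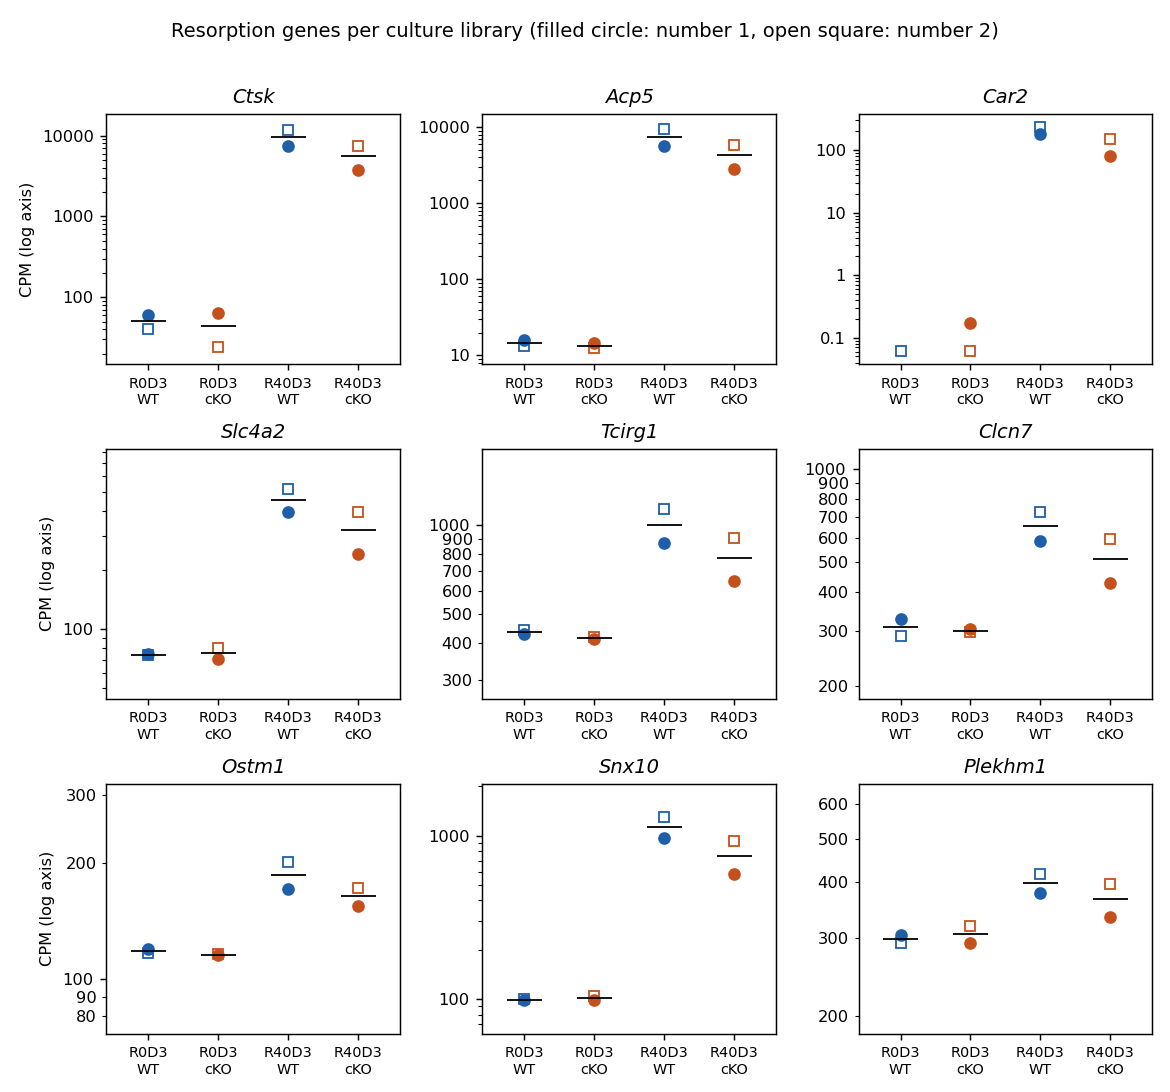
Level of each resorption gene in each culture library, in CPM on a log axis. Filled circles are number 1 and open squares number 2, blue is WT and orange LysM-cKO (cKO), and lines are group means (none for Car2). The number 1 WT R0D3 library has 0 counts of Car2 and is not drawn. For every gene the R40D3 points sit above the R0D3 points of the same genotype, and at R40D3 each LysM-cKO point sits below the WT point of its number.

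Ctsk (chromosome 3, 95499256 to 95509362, plus strand, GRCm38) encodes cathepsin K, the collagen-cutting protease of the resorption space. Its level in WT was 60.6 and 40.3 CPM at R0D3 and 7453 and 11631 CPM at R40D3. Both R40D3 libraries lay far above both R0D3 libraries, and the rise was 7.56 ± 0.65 (log2, SE; edgeR adjusted p = 0.000708). In LysM-cKO, Ctsk stood at 63.0 and 23.9 CPM at R0D3 and at 3760 and 7367 CPM at R40D3, a rise of 6.998 ± 0.64 (adjusted p = 0.00132). The number 2 LysM-cKO library was the lowest of the 4 R0D3 libraries. It also had the lowest R0D3 sum of 12 stromal fibroblast markers, 638.3 CPM against 1502 to 1867 CPM in the other 3, and the part of this in the Ctsk level was not tested.

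Acp5 (chromosome 9, 22126727 to 22135711, minus strand) encodes tartrate-resistant acid phosphatase, the classical osteoclast stain. WT libraries held 15.8 and 13.1 CPM at R0D3 and 5668 and 9379 CPM at R40D3. The rise was 9.02 ± 0.51 (adjusted p = 0.000161). LysM-cKO libraries went from 14.5 and 12.4 CPM to 2854 and 5800 CPM, a rise of 8.33 ± 0.50 (adjusted p = 0.000307). R0D3 libraries of both genotypes lay within 12.4 to 15.8 CPM, and no R40D3 library came near them. Of the exonic bases of Acp5, 137 overlap a transcript on the other strand, and whether counting used strand was not given in the sources used here.

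Per kilobase of the principal transcript, Ctsk and Acp5 headed the 9 genes at R40D3, with 6311 ± 1954 and 5199 ± 1813 CPM per kb in WT (SD, n = 2). Within each library Ctsk was the higher of the pair. The ratio of Ctsk to Acp5, per kb of all exons, was 1.77 and 1.67 in WT R40D3 and 1.77 and 1.71 in LysM-cKO R40D3, so the 4 libraries held the pair in nearly the same proportion. At R0D3 that ratio ranged from 2.59 to 5.82. Ranked per exonic length among 14019 genes, Ctsk moved from position 1416 to position 3 in WT and from 1650 to 6 in LysM-cKO. Acp5 moved from 5388 to 7 and from 5677 to 13.

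Car2 (chromosome 3, 14886273 to 14900770, plus strand), the cytosolic carbonic anhydrase that makes the protons, was all but absent at R0D3. The R0D3 libraries held 0 and 1 counts in WT and 3 and 1 in LysM-cKO, at or under the floor of 3 counts per library. At R40D3 the WT libraries held 180.6 and 239.7 CPM of it, and the LysM-cKO libraries 82.4 and 153.5 CPM. Against the floor, the mean was at least 1164-fold higher in WT (adjusted p = 2.37e-05) and at least 666-fold higher in LysM-cKO (adjusted p = 4.89e-05). In length-scaled rank Car2 moved from 13938 to 507 in WT and from 13799 to 947 in LysM-cKO.

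Slc4a2 (chromosome 5, 24423837 to 24440950, plus strand) encodes the anion exchanger that swaps bicarbonate for chloride. It stood at 74.7 and 73.6 CPM in WT R0D3 and at 393.1 and 518.9 CPM in WT R40D3, a rise of 2.62 ± 0.24 (adjusted p = 0.000826). LysM-cKO libraries went from 70.8 and 80.6 CPM to 242.3 and 394.5 CPM, a rise of 2.07 ± 0.24 (adjusted p = 0.00309). The 4 R0D3 libraries were close together and all 4 R40D3 libraries lay above them. Slc4a2 shares 1242 exonic bases with genes on the other strand, mainly Fastk.

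Tcirg1 (chromosome 19, 3896050 to 3907133, minus strand) encodes the a3 subunit that directs the V-ATPase to the resorbing membrane. Its WT level was already 428.3 and 443.2 CPM at R0D3 and reached 871.0 and 1135 CPM at R40D3, a rise of 1.20 ± 0.18 (adjusted p = 0.00511). In LysM-cKO it went from 413.5 and 418.2 CPM to 649.0 and 904.0 CPM, a rise of 0.90 ± 0.18 (adjusted p = 0.0228). Clcn7 (chromosome 17, 25133391 to 25162104, plus strand), the chloride and proton exchanger, stood at 327.0 and 289.9 CPM in WT R0D3 and at 585.2 and 725.7 CPM in WT R40D3, a rise of 1.09 ± 0.17 (adjusted p = 0.00615). In LysM-cKO it went from 303.3 and 297.6 CPM to 428.5 and 594.5 CPM, a rise of 0.77 ± 0.17 (adjusted p = 0.033). Groups did not overlap between R0D3 and R40D3 for either gene.

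Ostm1 (chromosome 10, 42583822 to 42702459, plus strand) encodes the partner protein that Clcn7 needs for its stability. It stood at 119.5 and 117.1 CPM in WT R0D3 and at 171.6 and 200.8 CPM in WT R40D3, a rise of 0.65 ± 0.10 (adjusted p = 0.00545). In LysM-cKO it went from 115.4 and 116.0 CPM to 155.1 and 172.6 CPM, a rise of 0.50 ± 0.10 (adjusted p = 0.0228). The Clcn7 to Ostm1 ratio per kb was 3.73 and 3.37 in WT R0D3 and 4.65 and 4.92 in WT R40D3. In LysM-cKO it was 3.58 and 3.50 at R0D3 and 3.77 and 4.70 at R40D3, so the number 1 R40D3 library lay near the R0D3 values. The Clcn7 to Tcirg1 ratio in WT was 0.664 and 0.569 at R0D3 and 0.585 and 0.556 at R40D3.

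Snx10 (chromosome 6, 51523901 to 51590679, plus strand) encodes a sorting nexin of endosomal transport that osteoclasts need for acid secretion. WT libraries held 98.0 and 99.7 CPM at R0D3 and 961.4 and 1300 CPM at R40D3, a rise of 3.52 ± 0.24 (adjusted p = 0.000341). LysM-cKO libraries went from 97.8 and 104.7 CPM to 583.2 and 921.8 CPM, a rise of 2.89 ± 0.24 (adjusted p = 0.000947). After Car2, Acp5 and Ctsk this was the steepest rise of the 9.

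Plekhm1 (chromosome 11, 103364275 to 103412687, minus strand), an adaptor for fusion of late endosomes and lysosomes, moved least. It stood at 304.2 and 292.0 CPM in WT R0D3 and at 377.7 and 416.2 CPM in WT R40D3, a rise of 0.41 ± 0.11 (adjusted p = 0.043). That call was lost in the edgeR fit with DESeq2 size factors, without the filter on low counts, and in 6 of the 8 fits that each left out 1 library. In LysM-cKO it held 291.7 and 318.6 CPM at R0D3 and 334.2 and 396.7 CPM at R40D3, a difference of 0.26 ± 0.11 (adjusted p = 0.209) that did not pass. The 2 traffic genes thus differed widely in the size of their response.

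In LysM-cKO cultures 8 of the 9 genes were called higher at R40D3, all but Plekhm1, against 6.99% of all tested genes called higher and 3.15% called lower. With the replicate block the count was again 8, against 13% higher and 8.22% lower. Both R40D3 libraries lay above both R0D3 libraries for all 9, against 27.3% of all tested genes. The median of the 9 was 2.07 on the log2 scale.
Calls of the smaller rises changed with the libraries in the fit. With only the 4 LysM-cKO libraries, Tcirg1, Clcn7 and Ostm1 lost their calls and 5 of the 9 were left, whereas with only the 4 WT libraries all 9 kept theirs. The same 3 calls were lost without any 1 of the 4 R0D3 libraries or without the number 2 LysM-cKO R40D3 library. In WT the count fell to 5 without the number 2 R40D3 library, when Tcirg1, Clcn7, Ostm1 and Plekhm1 were lost, and to 6 without the number 2 R0D3 library.

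**Figure D2:**
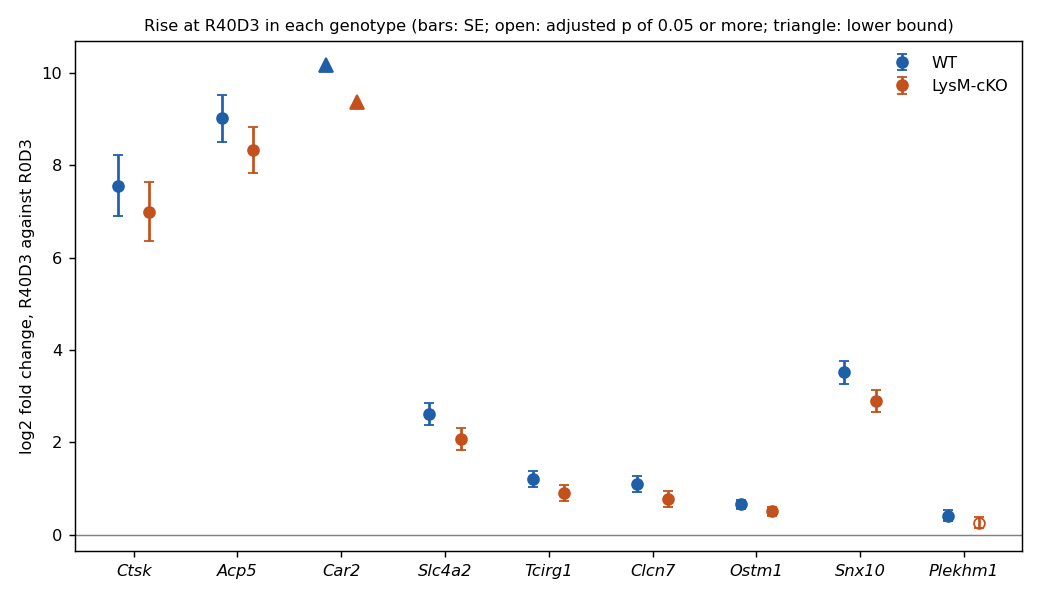
Log2 fold change of R40D3 against R0D3 for each gene, WT in blue and LysM-cKO in orange, with bars of 1 SE from the edgeR fit. Triangles are the log2 of the lower bound for Car2, and the open point is Plekhm1 in LysM-cKO, whose adjusted p was 0.209. The rise ran from 0.26 to 9.02 for the 8 genes other than Car2.

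Per kilobase of principal transcript, the order of the 9 genes turned over between the 2 titles. At WT R0D3, Tcirg1 led with 143.3 ± 3.48 CPM per kb, followed by Clcn7 with 75.8 ± 6.43, Plekhm1 with 49.95 ± 1.45, Snx10 with 39.9 ± 0.50, Ostm1 with 39.4 ± 0.58, Ctsk with 33.4 ± 9.52, Slc4a2 with 17.8 ± 0.19 and Acp5 with 10.0 ± 1.33 (SD, n = 2), and Car2 came last at or under its floor. The gaps between Snx10 and Ostm1 and between Ostm1 and Ctsk were smaller than the sum of the neighbours' SDs, which come from the same libraries for every gene. At WT R40D3, Snx10 with 456.0 ± 96.6 followed Ctsk and Acp5, ahead of Tcirg1 with 329.8 ± 61.4, Clcn7 with 161.0 ± 24.4, Car2 with 117.6 ± 23.4, Slc4a2 with 109.1 ± 21.3, Plekhm1 with 66.5 ± 4.57 and Ostm1 with 62.0 ± 6.86. There the gaps between Ctsk and Acp5, between Snx10 and Tcirg1, between Clcn7, Car2 and Slc4a2 as neighbours, and between Plekhm1 and Ostm1 were smaller than the sum of the neighbours' SDs. The place of Snx10 depends on the transcript taken, since its principal transcript has 2480 bases and all its exons together 9300. Other places change too. Per kb of all exons, Ctsk (33.4 CPM) stood above Ostm1 (16.4) and Snx10 (10.6) at WT R0D3. At WT R40D3 Snx10 (121.6) then stood below Tcirg1 (217.9) and Clcn7 (123.9), and Slc4a2 (54.8) below Plekhm1 (66.5). Ctsk and Acp5 lead at R40D3 with either length.

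Several of the 9 genes have relatives in the same role, and each was taken as a share of its family's summed CPM per kb of exons. Tcirg1 made up 50.4% and 50.9% of the 4 V-ATPase a subunits in WT R0D3 and 75.7% and 81.0% in WT R40D3. Its relative Atp6v0a1 fell from 561.4 ± 9.05 to 329.8 ± 17.0 CPM (SD, n = 2; edgeR adjusted p = 0.0043), and Atp6v0a2 rose from 45.2 ± 2.93 to 59.4 ± 3.44 CPM (adjusted p = 0.0435). Ctsk went from 0.342% and 0.226% of 14 cathepsins to 38.7% and 52.1%. Acp5 went from 10.4% and 9.0% of 6 acid phosphatases to 97.6% and 98.7%, while Acp1, Acp2 and Acp6 did not pass the test. Car2 went from 0% and 0.16% of 16 carbonic anhydrases to 80.5% and 85.6%.
Clcn7 was the main ClC gene from the start, with 66.5% and 64.4% of 9 genes at WT R0D3 and 78.8% and 81.9% at WT R40D3. Slc4a2 went from 73.0% and 74.1% of 10 Slc4 genes to 89.8% and 91.7%. In LysM-cKO R40D3 the shares were lower than in both WT libraries for Car2, at 62.0% and 74.9%, for Ctsk, at 22.9% and 37.2%, for Tcirg1, at 69% and 74.8%, and for Slc4a2, at 82.7% and 88.1%. They overlapped with WT for Acp5, at 95.2% and 97.8%, and for Clcn7, at 72.7% and 79.6%. The Tcirg1 share was below both WT libraries at R0D3 too, at 50.2% and 45.9%. These shares were not tested.

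**Figure D3:**
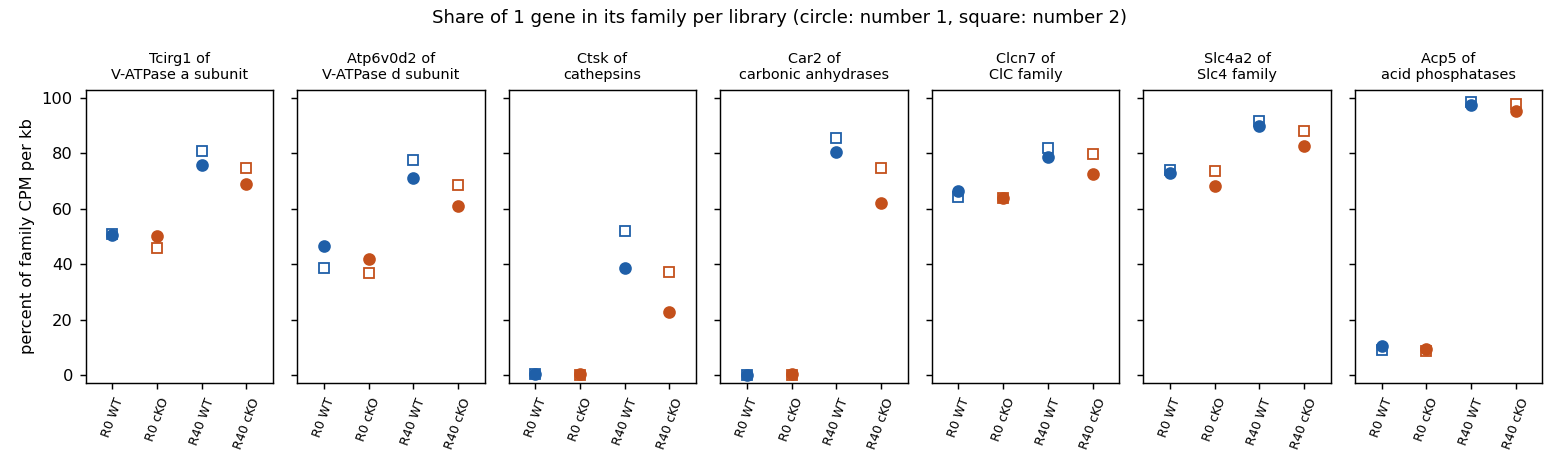
Percent of the family's summed CPM per kb held by 1 gene, in each culture library. Circles are number 1, squares number 2, blue WT and orange LysM-cKO (cKO). Atp6v0d2, a V-ATPase d subunit outside the 9 genes, is shown beside Tcirg1. Ctsk and Car2 go from under 1% at R0D3 to between 22.9% and 52.1% and between 62.0% and 85.6% at R40D3.

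Other genes of the pathway divided by family. Of 24 other V-ATPase genes 18 were tested, and in WT 15 were called higher at R40D3 and 1 lower, with a median log2 fold change of 1.05. Atp6v1d, a stalk subunit, rose from 138.9 ± 0.28 to 440.6 ± 61.3 CPM (adjusted p = 0.001), Atp6v1h from 117.8 ± 7.03 to 325.8 ± 47.8 CPM (adjusted p = 0.00214), and the catalytic-domain subunit gene Atp6v1b2 from 756.1 ± 27.9 to 2542 ± 468.0 CPM (adjusted p = 0.00343). In LysM-cKO 9 were called higher and 1 lower, or 14 and 1 with the replicate block. Among 12 tested cathepsins other than Ctsk, none was called higher in WT and 3 were called lower (8 with the block): Ctsh, Ctss and Ctsl. Ctsl went from 1602 ± 481.1 to 700.8 ± 212.6 CPM (adjusted p = 0.0339). The lysosomal proteases Ctsb and Ctsd, the highest of the family, were at 21609 ± 1816 and 11599 ± 885.4 CPM at WT R0D3 and at 11908 ± 2298 and 7141 ± 104.5 CPM at WT R40D3, without passing (adjusted p = 0.0715 and 0.0675); with the replicate block both passed as lower (adjusted p = 0.0102 and 0.0108). In LysM-cKO 1 other cathepsin, Ctsh, was called lower (5 lower and 1 higher with the block).

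Of 6 tested carbonic anhydrases other than Car2, Car8 alone was called higher in WT, at 0.21 ± 0.05 CPM at R0D3 and 0.92 ± 0.10 CPM at R40D3. Car13 had group means between 28.7 and 38.3 CPM and was called with the replicate block but not without it, as higher in LysM-cKO R40D3 than R0D3 (log2 0.35, edgeR adjusted p = 0.0322). Among the other ClC genes, Clcn3, Clcn4, Clcn5 and Clcn6, exchangers of endosomes and lysosomes, were not called in either genotype. Among 4 other bicarbonate transporters tested, Slc4a3, Slc4a7 and Slc4a8 were called higher in WT, and Slc4a7 rose from 44.5 ± 2.67 to 69.2 ± 0.84 CPM (adjusted p = 0.00326). In LysM-cKO, Slc4a7 and Slc4a8 were called. Of 14 other tested genes of lysosome traffic, none was called higher in WT and 4 were called lower (Arl8a, Lamp2, Plekhm3 and Rab3d; 5 lower and 1 higher with the block), and in LysM-cKO none was called (3 lower with the block; unadjusted p was under 0.05 for 3). Of 11 other tested genes linked to osteopetrosis, 4 were called higher in each genotype (Nfatc1, Src, Tnfrsf11a and Traf6), and 1, Mitf, lower in WT.

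At R40D3 each of the 9 genes was lower in LysM-cKO than in WT within both replicate numbers. None passed the main test, which did not pair the numbers. For comparison, 34.3% of all tested genes were lower within both numbers. The level in LysM-cKO as a percent of WT, in numbers 1 and 2, was 50.5% and 63.3% for Ctsk, 50.4% and 61.8% for Acp5, 45.6% and 64.0% for Car2, 61.6% and 76.0% for Slc4a2, and 60.7% and 70.9% for Snx10. The other 4 were closer to WT: Tcirg1 was at 74.5% and 79.7%, Clcn7 at 73.2% and 81.9%, Ostm1 at 90.3% and 85.9%, and Plekhm1 at 88.5% and 95.3%. Number 2 libraries were higher than number 1 libraries of the same genotype for all 9 genes at R40D3. Both LysM-cKO libraries lay below both WT libraries only for Ctsk, Car2 and Snx10, against 18.9% of all tested genes.

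The fitted log2 difference between LysM-cKO and WT at R40D3 was -0.78 ± 0.49 for Ctsk, -0.80 ± 0.36 for Acp5, -0.83 ± 0.26 for Car2, -0.52 ± 0.23 for Slc4a2 and -0.59 ± 0.22 for Snx10. It was -0.37 ± 0.18 for Tcirg1, -0.36 ± 0.17 for Clcn7, -0.19 ± 0.10 for Ostm1 and -0.12 ± 0.11 for Plekhm1. The edgeR adjusted p ran from 0.648 to 0.775, with 0 of 9 called and 2 of 9, Car2 and Snx10, at an unadjusted p under 0.05, as were 1048 of the 14030 tested genes; DESeq2 also called 0 of 9. Of all tested genes, 0.0143% were called. With the replicate block Car2 alone passed, at -0.88 ± 0.12 (edgeR adjusted p = 0.0236), against 0.214% of all tested genes. The unadjusted edgeR p of that blocked fit was under 0.05 for all of the 9 except Ctsk (0.115) and Plekhm1 (0.181). It was also under 0.05 for 2600 of the 14030 tested genes. The median of the 9 was -0.52, against -0.01 over all tested genes. The median became -0.19 without the number 1 LysM-cKO R40D3 library, -0.29 without the number 2 WT R40D3 library and -0.93 without the number 2 LysM-cKO R40D3 library, so it moved by more than 1.5 times with single libraries.

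The comparison of R40D3 with R0D3 in WT and that of LysM-cKO with WT at R40D3 share the WT R40D3 libraries, so their values are only given side by side. As log2 differences, the rise in WT and the genotype difference at R40D3 were 9.02 and -0.80 for Acp5, 7.56 and -0.78 for Ctsk, 3.52 and -0.59 for Snx10, and 2.62 and -0.52 for Slc4a2. They were 1.20 and -0.37 for Tcirg1, 1.09 and -0.36 for Clcn7, 0.65 and -0.19 for Ostm1, and 0.41 and -0.12 for Plekhm1.

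**Figure D4:**
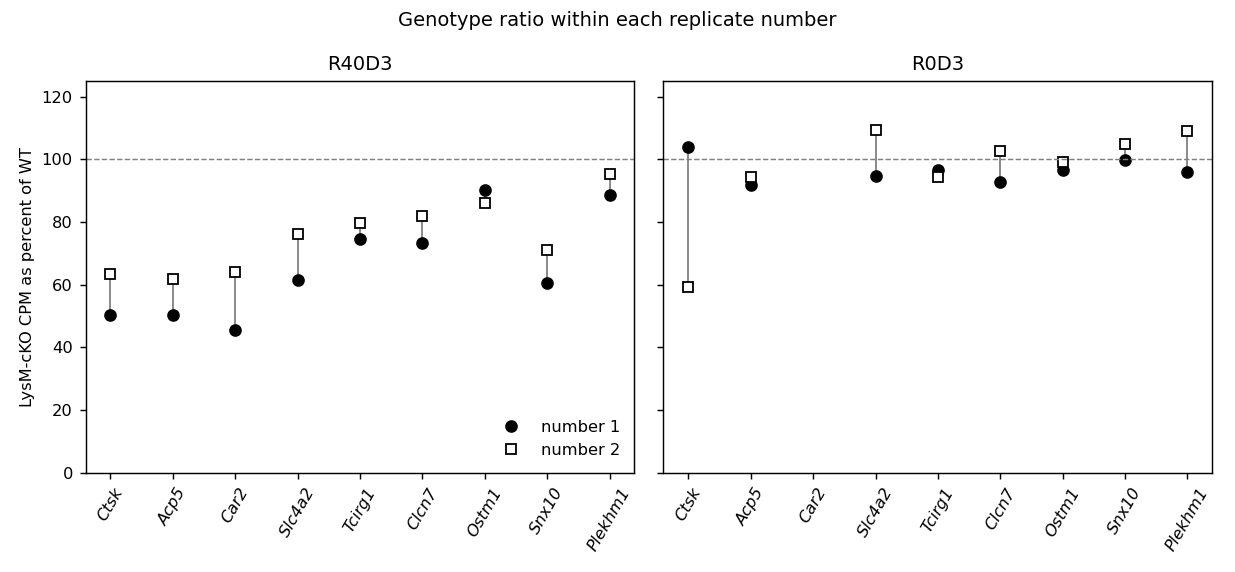
LysM-cKO level as a percent of the WT level of the same replicate number, at R40D3 (left) and R0D3 (right). Filled circles are number 1, open squares number 2, and the dashed line marks equality. At R40D3 the points of all 9 genes lie below 100%, from 45.6% to 95.3%; at R0D3 points lie on both sides. Car2 is left out at R0D3, where it was at or under the floor.

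At R0D3 the genotypes lay close together. The log2 difference was between -0.11 and 0.03 for 7 of the 9 genes, Ctsk stood at -0.22 ± 0.52 (-1.10 without the number 1 LysM-cKO R0D3 library and 0.32 without the number 2 one), and Car2 was at or under its floor. Within numbers, Ctsk was at 103.9% and 59.3% of WT. Acp5, Tcirg1 and Ostm1 were lower in both numbers, that is 3 of 9 against 27.7% of all tested genes, at 91.8% to 99.1% of WT. EdgeR called 0 of 9 (0 of 9 also at an unadjusted p under 0.05, and 0 by DESeq2), against 0.0143% of all tested genes, or 0.0214% with the block. The genotype difference at R40D3 minus that at R0D3 was negative for the 8 genes other than Car2, from -0.69 ± 0.55 for Acp5 to -0.15 ± 0.16 for Plekhm1 and -0.15 ± 0.14 for Ostm1. EdgeR called none of the 9, with 0 of 9 at an unadjusted p under 0.05 and 0 by DESeq2. Of all tested genes 0% were called, also 0% with the block, while 248 had an unadjusted p under 0.05. With the block the unadjusted edgeR p was under 0.05 for Snx10 (0.0134) and Slc4a2 (0.0259) alone of the 9. The same held for 841 of all tested genes.

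Marker lists of other cell types gave the following values. At R40D3 all 8 osteoclast markers outside the 9 were lower in LysM-cKO; edgeR called 0 of them, 3 had an unadjusted p under 0.05, and 1 was called with the replicate block. Their sum was 13172 and 17749 CPM in WT and 6575 and 11666 CPM in LysM-cKO. As a percent of that sum, Ctsk was 56.6% and 65.5% in WT and 57.2% and 63.1% in LysM-cKO, and Acp5 was 43.0% and 52.8% against 43.4% and 49.7%. Car2 was 1.37% and 1.35% against 1.25% and 1.32%. Measured this way Ctsk and Acp5 overlapped between genotypes, Car2 was slightly lower in both LysM-cKO libraries, and the other 6 genes were higher in both. Plekhm1, for example, was 2.87% and 2.35% in WT and 5.08% and 3.40% in LysM-cKO, and Snx10 was 7.30% and 7.33% against 8.87% and 7.90%. Mmp9 alone made up 76.9% to 80.0% of the sum. Without it, a choice made after seeing the data, Snx10 overlapped at 36.5% and 36.4% against 38.4% and 35.5%, Car2 was 6.86% and 6.71% against 5.43% and 5.92%, and Slc4a2, Tcirg1, Clcn7, Ostm1 and Plekhm1 stayed higher in both LysM-cKO libraries. Ctsk was then 283% and 326% against 248% and 284%, and Acp5 215% and 263% against 188% and 224%. These 2 genes were lower in LysM-cKO within both numbers, though the groups still overlapped. These shares were not tested.
The macrophage sum was 29431 and 29339 CPM in WT R40D3 and 23301 and 19821 CPM in LysM-cKO R40D3. Lyz2, the LysM gene, held 18949 and 20334 against 11773 and 11302 CPM of this, and the other 9 macrophage markers summed to 10483 and 9005 against 11528 and 8519 CPM. Of the 10, 5 were higher and 5 lower in LysM-cKO, with a median log2 difference of -0.02. The stromal fibroblast sum was 1958 and 1907 against 1731 and 543.1 CPM, with 10 of 11 tested markers lower in LysM-cKO. All 10 proliferation genes were higher in LysM-cKO at R40D3, with sums of 172.6 and 159.2 against 210.7 and 398.5 CPM, and all 9 tested granulocyte markers were lower, with sums of 550.2 and 127.8 against 200.7 and 89.5 CPM. At R40D3 edgeR called none of the macrophage, stromal, proliferation or granulocyte markers, of which 3, 3, 1 and 2 had an unadjusted p under 0.05. Their part in the lower level of the 9 genes was not tested. The same directions were seen at R0D3, where all 10 proliferation genes were higher in LysM-cKO (median log2 difference 0.99). There all 9 tested granulocyte markers (-0.70) and 10 of 11 stromal markers (-0.32) were lower, as was Lyz2 (-1.02). None of these was called at R0D3 either. Erythroid markers summed to at most 1.53 CPM, with Hba-a2, Hbb-bt and Rhag at 0, and osteoblast markers to at most 12.1 CPM, with Bglap at 0.

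Genes of like pattern were taken as the 2 outside the 9 whose log2 CPM profile over the 8 libraries, centred on its own mean, differed least (root mean square difference) among 9691 genes that averaged 5 CPM or more. Log2 CPM carried a prior count of 2, which sets the R0D3 values of genes near 0 there, among them Car2, Serpind1, Akap6, Kbtbd11, Msln, Scin and Rufy4, and so much of their differences. Ctsk had Serpind1 (0.255) and Akap6 (0.297), Acp5 had Kbtbd11 (0.246) and Msln (0.304), and Car2 had Scin (0.303) and Rufy4 (0.326). Snx10 had Cdc42ep2 (0.108) and Chchd10 (0.111), and Slc4a2 had Bhlhe40 (0.0973) and Dock5 (0.127). The genes with the smallest rises gave the smallest differences: Tcirg1 had Sdhd (0.0493) and Agfg2 (0.0585), Clcn7 had Ptges2 (0.0574) and Pxn (0.0643), Ostm1 had Akap1 (0.0469) and Spi1 (0.0475), and Plekhm1 had Xpo5 (0.0334) and Aco1 (0.0380). Tcirg1 and Clcn7 were each other's nearest among the 9, at 0.0856. Against the 9691 genes outside the 9, Clcn7 would rank 23 for Tcirg1, and Tcirg1 would rank 15 for Clcn7. Ostm1 and Plekhm1 (0.132), Slc4a2 and Snx10 (0.431), and Acp5 and Car2 (0.679) were also each other's nearest among the 9.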

How the data were processed

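The measurements are RNA-seq counts per gene identifier, deposited by the authors as tables of whole-number counts, 1 table per culture replicate number. Per the submitters' processing notes, FastQC 0.11.2, Trimmomatic 0.36, HISAT2 2.1.0 and DESeq2 1.12.4 were used with build GRCm38. The counting tool, annotation and strand setting were not given in the sources used here. Identifiers were matched to symbols with GENCODE, 99.53% of 55401.

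From the counts, genes were filtered with filterByExpr and scaled by TMM, and 14030 genes in all 8 culture libraries were fitted as 4 group means with edgeR 4.0.16 (quasi-likelihood, R 4.3.3). P-values are two-sided and Benjamini-Hochberg adjusted over all tested genes, with calls below 0.05. The alternatives were library size alone, DESeq2 size factors, DESeq2 1.42.0, no filter, the legacy fit, the replicate block, only the compared libraries and leaving out each library. The scripts were tested on simulated data. Same-numbered libraries deviated together (correlations from 0.34 to 0.61 over the 6 pairs of groups). The numbers were therefore taken to pair them in the within-number values and in the replicate block. The main fit held no term for the number and did not pair them.

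The 9 genes, the other lists and the tests were chosen with earlier results of these data known. Named genes of other lists were the 2 with the smallest p in WT, the 2 of highest level, and relatives of at least 5 CPM; others called were named after their values were seen. Levels per kb use exon or principal-transcript length, and folds for Car2 use a floor of 3 counts, which covers counting error only.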

Additional observations from a re-analysis of the deposited data

Results flagged for a closer look

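The 4 embryonic forelimb libraries are outside the comparisons above. Their Ctsk level, as CPM without TMM scaling, was 9.31 and 6.55 for WT. For Prx-cKO it was 12.8 and 10.7, where the Prx promoter drives Cre in limb mesenchyme. Both Prx-cKO libraries thus lay above both WT libraries, with 10.7 CPM as the lower of the pair. The other 8 genes did not show this, and Acp5, Slc4a2 and Ostm1 lay the other way, with both Prx-cKO libraries below both WT libraries. The share of all forelimb genes that separate in either direction is not given here. These differences were not tested.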

How the results depend on the processing

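Under the normalization, filter, tool and legacy-fit alternatives the members called stayed within 1.5 times their number in every comparison. Leaving out 1 library leaves its group with a lone library, assumed to vary like the other groups.

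In WT, R40D3 against R0D3, 2367 genes were called, 3977 with the replicate block, and 689 to 2425 without 1 library; of the 9 genes, 5 to 9 were called without 1 library. In LysM-cKO 1422 genes were called, 2983 with the block, 533 with only the compared libraries, and 399 to 1317 without 1 library; of the 9 genes, 5 were called with only the compared libraries and 5 to 8 without 1 library. The median of the 9 there fell from 2.07 to 1.64 without the number 2 LysM-cKO R40D3 library.

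For LysM-cKO against WT at R40D3, 2 genes were called, 0 with library size alone, 23 with DESeq2, 30 with the replicate block, 0 with only the compared libraries and 0 without any 1 library; the block called 1 of the 9, Car2. At R0D3, 2 genes were called, 7 with DESeq2, 0 with only the compared libraries and 0 to 1 without 1 library. The replicate block changed no other call of the 9 genes.

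Signs turned only where 1 library was left out, and the ranges over those 8 settings follow. At R40D3 the genotype difference of Plekhm1 ran from -0.27 to 0.022. At R0D3 it ran from -1.10 to 0.32 for Ctsk, -0.25 to 0.038 for Acp5, -0.070 to 0.094 for Slc4a2, -0.12 to 0.052 for Clcn7, -0.019 to 0.057 for Snx10, -0.034 to 0.071 for Plekhm1, and -0.066 to 0.039 for the median of the 8 genes above the floor. The difference between R40D3 and R0D3 in the genotype effect ran from -1.14 to 0.33 for Ctsk and from -0.29 to 0.0017 for Plekhm1. The cause was not tested. Car2 has no fold at R0D3 because its counts there were at most 3.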

Other observations

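The forelimb libraries give the 9 genes in another tissue. Car2, at most 3 counts per R0D3 culture library, had 22.0 and 25.5 CPM for WT forelimb and 23.3 and 22.6 CPM for Prx-cKO forelimb. Slc4a2 was the highest of the 9 by CPM in both WT forelimb libraries, with 78.3 and 92.1 CPM, against 63.7 and 73.6 CPM in Prx-cKO. Acp5 had 15 and 12.8 CPM for WT and 10.2 and 9.61 CPM for Prx-cKO, Snx10 at 12.9 and 6.56 CPM against 9.45 and 5.23 CPM, and Ostm1 at 9.16 and 9.92 CPM against 8.96 and 7.40 CPM. The forelimb tables were scaled apart from the cultures, so no test between them was made.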
